A study of Mus musculus with 10 samples.

Results

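The class IIa histone deacetylases *Hdac4*, *Hdac5*, *Hdac7* and *Hdac9* and the MEF2 transcription factors *Mef2a*, *Mef2c* and *Mef2d* were followed in whole brains of newborn mice. These 7 genes were taken by symbol from a table of 18444 genes, by a rule that uses no measured value. The choice was nevertheless made with earlier results of these data known. All 7 passed the filter on low values, a mean of at least 10 normalised counts, as did 17020 genes in all. A further MEF2 gene, *Mef2b*, was not among those chosen, and its values ran from 3.94 to 16.2 normalised counts, with a mean under the filter.

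The mice were 10 males of the C57BL/6N strain at postnatal day 3. In the HT group 5 mice were heterozygous for *Arid1b* (Arid1b+/-), and in the WT group 5 were wild type. ARID1B is a DNA-binding subunit of the BAF chromatin remodeling complex. The edited allele had lost exon 5 by CRISPR/Cas9 targeting in the germ line, so every cell of the animal carries it, no Cre or promoter limits it to a cell type, and the other allele is intact. The labels name no drug for either group. The comparison asks how HT and WT brains differ in the transcripts of these deacetylases and of the factors that they bind.

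Class IIa deacetylases carry a long N-terminal arm that binds MEF2 factors, and on DNA they act as corepressors of MEF2 target genes. Kinases that respond to calcium, among them CaMK and protein kinase D enzymes, phosphorylate this arm, after which 14-3-3 proteins bind it and the deacetylase leaves the nucleus. In neurons MEF2 factors regulate genes of activity, of synapse number and of dendrites, and MEF2C is abundant in the developing cortex. Much of this control acts on the proteins and on their place in the cell, which RNA sequencing does not measure.

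The libraries held 27.2 M to 29.03 M normalised counts each (M, 1000000), a normalised count being the estimated reads of a gene divided by the size factor of the library. *Arid1b* was lower in every HT library, where it averaged 2101 ± 343 normalised counts against 3335 ± 203 for WT (SD over 5 mice). Its log2 fold change was -0.68, with an adjusted p of 0.390 in limma over all genes, and -0.57 with an adjusted p of 2.47e-04 when library HT 4 was left out. HT 4 stood apart from the rest: its genes lay a median of 0.209 log2 units from their mean over libraries, against 0.077 to 0.108 in the other 9 libraries. In HT 4 long transcripts were low and short ones high, with a median deviation of -0.34 for the 10% of genes with the longest transcripts and 0.27 for the 10% with the shortest. Values of the members are therefore given with and without HT 4. Neuronal transcripts were abundant in all libraries, from 116271 to 129550 normalised counts summed over 5 markers. In RNA from whole brain, fewer cells of a type and less RNA per cell cannot be told apart.

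A long stretch of coding sequence that paralogs share exactly is printed here for each family, to show a region where they are alike. Both were read from GENCODE M21 transcripts and are written 5′ to 3′ on the coding strand, all of each stretch being shared:
Hdac5 and Hdac7, 36 bases: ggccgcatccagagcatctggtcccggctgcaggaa
Mef2c and Mef2d, 28 bases: tgctcaagtacaccgagtacaacgagcc
The second of these begins at base 197 of both coding sequences, in the part that codes for the DNA-binding end of the protein. Of the 31-base words in the exons of each member, between 0% (*Mef2d*) and 2.92% (*Mef2a*) occur in the exons of any other gene, and no more than 13 words of any member occur in another member. The gene that shares the most words with *Mef2a* is *A130077B15Rik*, with 205 of the 432 shared words, so part of the *Mef2a* signal is uncertain. Whether reads were assigned to the wrong gene was not tested.

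RefSeq promoter windows of 300 bases, 250 before and 50 after a transcript start on build GRCm38.p6, were held for all 7 members, 13 windows in total. They were searched on both strands for the MEF2 element, the GC box (GGGCGG), the core of the cyclic AMP response element (TGACG) and the TATA box (TATAAA). A MEF2 element was found once in each of 2 windows, those of *Mef2a* and *Hdac5*, against 3.19% of 32851 promoters. These windows are printed with that of *Hdac4*, the member with the most GC boxes. Capitals mark every match, in either orientation, and no matches overlap:
Mef2a, chr7:67372809-67373108, minus strand: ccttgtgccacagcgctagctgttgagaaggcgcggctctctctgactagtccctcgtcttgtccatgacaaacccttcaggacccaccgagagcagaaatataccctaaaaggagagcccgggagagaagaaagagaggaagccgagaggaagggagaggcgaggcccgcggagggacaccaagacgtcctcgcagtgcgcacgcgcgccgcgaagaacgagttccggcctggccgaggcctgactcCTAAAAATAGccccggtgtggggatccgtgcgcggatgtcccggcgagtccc
Hdac5, chr11:102230123-102230422, minus strand: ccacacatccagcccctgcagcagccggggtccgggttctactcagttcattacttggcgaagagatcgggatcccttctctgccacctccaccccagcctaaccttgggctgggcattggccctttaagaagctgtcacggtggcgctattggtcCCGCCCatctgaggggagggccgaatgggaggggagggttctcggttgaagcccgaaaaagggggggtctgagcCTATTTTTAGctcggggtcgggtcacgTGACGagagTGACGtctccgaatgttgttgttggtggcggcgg
Hdac4, chr1:92180292-92180591, minus strand: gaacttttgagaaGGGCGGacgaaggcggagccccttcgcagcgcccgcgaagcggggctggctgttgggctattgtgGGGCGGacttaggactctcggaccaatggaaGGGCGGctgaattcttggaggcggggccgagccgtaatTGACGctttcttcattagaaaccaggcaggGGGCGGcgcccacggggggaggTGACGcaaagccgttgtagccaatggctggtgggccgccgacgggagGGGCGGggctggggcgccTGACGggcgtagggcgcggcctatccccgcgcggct
The *Mef2a* window held 1 MEF2 element and none of the other motifs. In the *Hdac5* window there were 1 MEF2 element, 1 GC box and 2 response element cores. The *Hdac4* window held 5 GC boxes and 3 response element cores, where 35.7% and 20.8% of all promoters hold at least 1. It had 32 CpG pairs, more than 90.5% of promoters, and it begins inside the gene as GENCODE draws it. A TATA box, present in 13.6% of promoters, was found in 2 of 3 *Mef2c* windows and 1 of 2 *Hdac9* windows. A match of letters does not show that a factor binds there.

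*Hdac4*, a corepressor that shuttles between nucleus and cytoplasm (ENSMUSG00000026313, chr1:91928779-92195699 on GRCm38), had 1441, 1358, 1303, 835 and 1353 normalised counts in HT 1 to HT 5. In WT 1 to WT 5 it had 1130.2, 1184, 1386, 1102 and 1239. The HT values except HT 4 lay above the WT mean of 1208, but WT 3 fell among them, so that the groups overlapped with or without HT 4.

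*Hdac5*, its close paralog (ENSMUSG00000008855, chr11:102194432-102230166), was at 2736, 2849, 3267, 2856 and 3037 in HT and at 3039, 2405, 2774, 2799 and 3096 in WT. HT 3 was the highest library and WT 2 the lowest, and HT 4 lay within the values of the other HT mice. *Hdac7* is best known from endothelium and thymocytes (ENSMUSG00000022475, chr15:97792664-97844502). It gave 1441, 1649, 1494, 1466 and 1732 in HT and 1614, 1512, 1659, 1641 and 1800.4 in WT. No HT library exceeded the highest WT library, and HT 4 was again inside the HT range.

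*Hdac9*, which also gives rise to a short form without a catalytic domain (ENSMUSG00000004698, chr12:34047580-34917095), had 1197, 1101, 1108, 731 and 1077 in HT. In WT it had 1024, 1070.2, 1159, 1206 and 977. HT 4 was the lowest of all libraries, and the other HT values lay within the WT range. The table sums the transcripts of a gene, so that the short form is not resolved.

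*Mef2a* (ENSMUSG00000030557, chr7:67231163-67372858) codes for a factor with roles in synapse and dendrite development. It was at 4555, 4635, 4517, 3445 and 4614 in HT and at 4448, 4526, 4677, 4634 and 4378 in WT. Outside HT 4, the 9 values spanned 4378 to 4677, and the 4 HT values fell within the WT range.

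*Mef2c*, the most abundant member and a regulator of cortical excitatory neurons (ENSMUSG00000005583, chr13:83504034-83667080), had 20359.5, 20922, 18545, 11260.5 and 20712 in HT. In WT it had 18132, 17686, 19722, 18966 and 17925. In this gene 3 HT libraries exceeded every WT library, HT 3 lay within the WT range, and HT 4 was far below all others. *Mef2d* (ENSMUSG00000001419, chr3:88142372-88172086), which is broadly expressed in neurons, was at 4183, 4061, 4148, 2806 and 4171 in HT and at 4143, 3998, 4499, 4025 and 3784 in WT. Here again HT 4 was the lowest library, and the other HT values were close together inside the WT range.

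**Figure D1:**
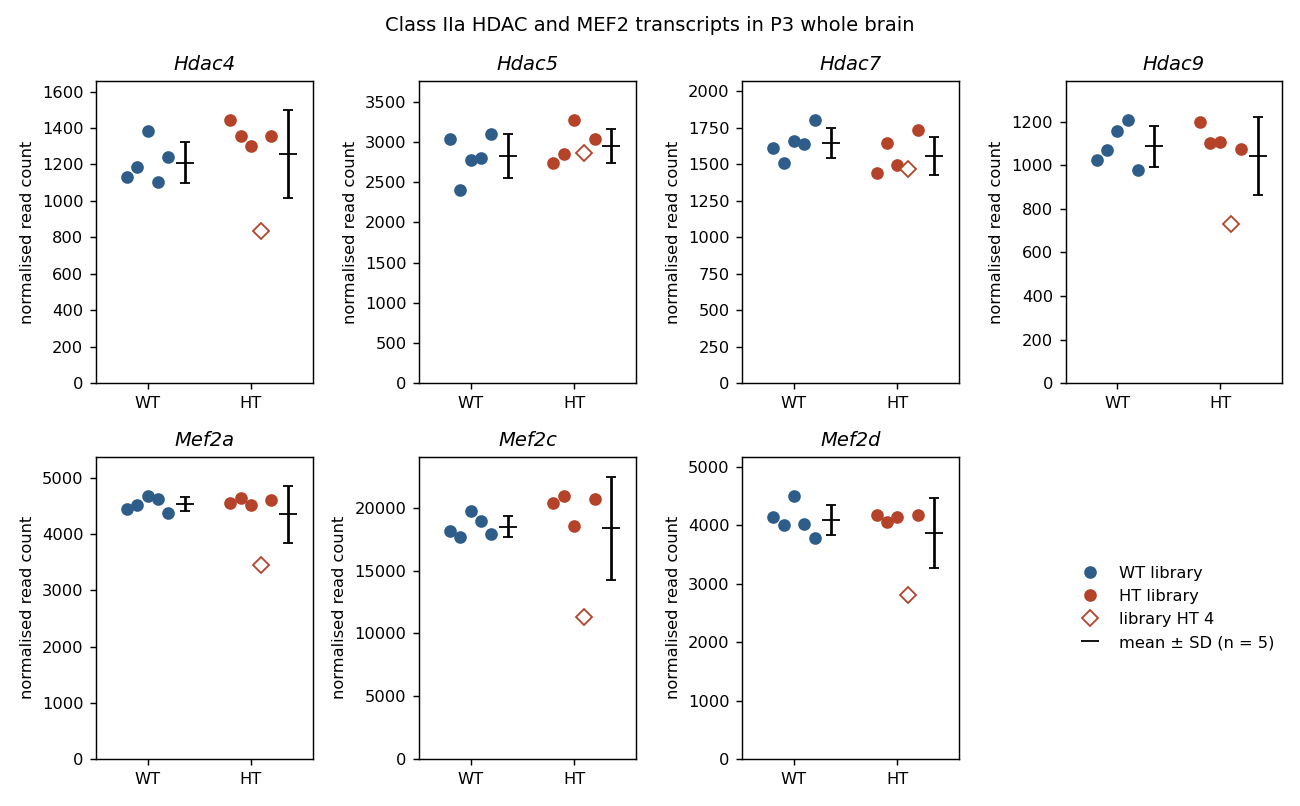
Normalised read counts (vertical axes, from 0) of the 7 members in WT and HT libraries, 1 point per library, with HT 4 as an open diamond and bars for the mean ± SD (n = 5). HT 4 is the lowest point for *Hdac4*, *Hdac9*, *Mef2a*, *Mef2c* and *Mef2d*, but lies among the other libraries for *Hdac5* and *Hdac7*.

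No member differed between HT and WT past the adjusted threshold of 0.05. With all libraries, limma called 0 of 7 members, against 0% of the 17020 genes tested, and 0 of 7 at an unadjusted p under 0.05, against 3.41% of genes. The group means were 1258 ± 242 in HT and 1208 ± 112 in WT for *Hdac4*, 2949 ± 208 and 2822 ± 273 for *Hdac5*, and 1557 ± 127 and 1645 ± 104 for *Hdac7* (SD, n = 5). For *Hdac9* they were 1043 ± 180.2 and 1087 ± 94.3, and for *Mef2a* 4353 ± 509.8 and 4532 ± 125. *Mef2c* had 18359.8 ± 4078 and 18486 ± 842, and *Mef2d* 3874 ± 599 and 4089.8 ± 263. The SD in HT was more than the difference of the means for each of these genes.

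On the log2(value + 1) scale, the fold changes of HT against WT lay between -0.092 (*Mef2d*) and 0.066 (*Hdac5*). The mean was higher in HT for 2 of 7 members, *Hdac4* and *Hdac5*, where 46.4% of all genes had a log2 fold change above 0. The median over the members was -0.067, beside -0.0074 over all genes tested. As ratios, the 95% intervals were 0.843 to 1.25 for *Hdac4*, 0.852 to 1.07 for *Mef2a* and 0.779 to 1.21 for *Mef2c*. No member separated the groups, which 0.629% of genes did.

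Without HT 4, 6 of 7 members had a higher mean in HT, *Hdac7* being the exception, where 49.6% of all genes did. *Hdac4* then had 1364 ± 57.4 in HT (SD, n = 4) against the 1208 ± 112 of WT, a ratio of 1.13 (95% interval 1.03 to 1.25). Its unadjusted p was 0.0152 and its adjusted p 0.481 in limma, with p = 0.0635 in the exact permutation test over 126 assignments (two-sided). *Mef2c* had 20135 ± 1085 in HT against 18486 ± 842, a ratio of 1.09 (1.02 to 1.16). Its unadjusted p was 0.0114 and its adjusted p 0.470 in limma, with an exact permutation p of 0.0476, the smallest possible being 0.0159. These were 2 of 7 members at an unadjusted p under 0.05, where 8.38% of genes reached it, and 0 of 7 passed the adjusted threshold, as 0.0118% of genes did. No member separated the groups without HT 4 either, where 2.96% of genes did.

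For the other 5 members the interval without HT 4 included a ratio of 1. *Mef2a* had a ratio of 1.01 (95% interval 0.961 to 1.06) and *Mef2d* one of 1.01 (0.948 to 1.08). *Hdac5* had a ratio of 1.05 (0.947 to 1.17), *Hdac7* one of 0.959 (0.873 to 1.05) and *Hdac9* one of 1.03 (0.938 to 1.14). The interval of *Mef2a* was the narrowest of the 7. A second reading took the trend on transcript length and GC content out of each of the 9 libraries. *Hdac4* then had a log2 fold change of 0.16 with an unadjusted p of 0.0234, and *Mef2c* 0.095 with an unadjusted p of 0.0328, with adjusted p of 0.580 and 0.588 in limma. These were again 2 of 7 members, where 7.93% of genes reached an unadjusted p under 0.05.

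**Figure D2:**
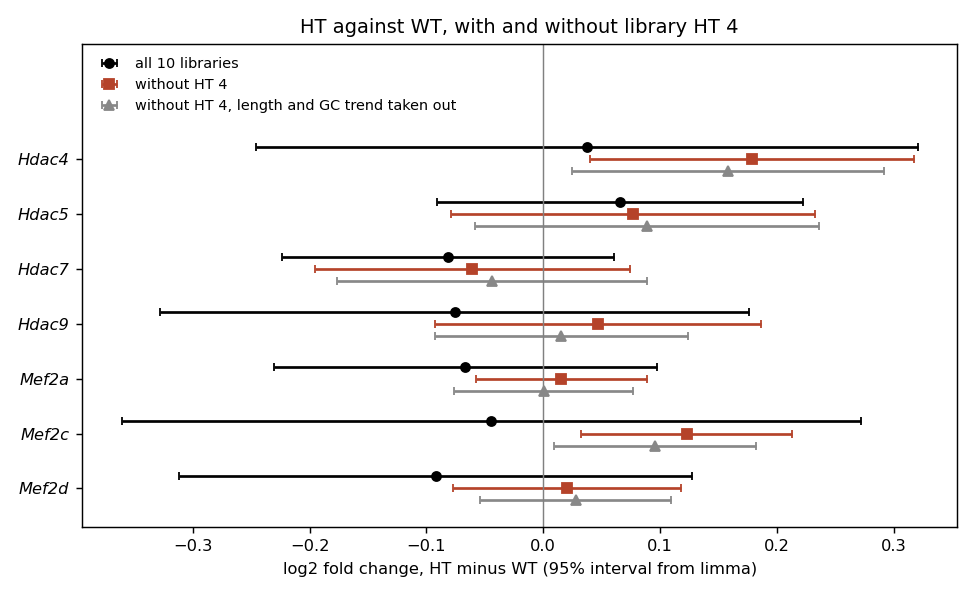
Log2 fold change of HT against WT (horizontal axis) with its 95% interval from limma for each member, with all 10 libraries, without HT 4, and without HT 4 once the trend on length and GC content was removed. The intervals include 0 for all members with all libraries, and exclude 0 for *Hdac4* and *Mef2c* in both readings without HT 4.

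HT 4 set the direction for 4 of the members, and it did so unevenly. As a share of the mean of the other 4 HT libraries, *Mef2c* stood at 55.9% in HT 4, *Hdac4* at 61.2%, *Hdac9* at 65.2%, *Mef2d* at 67.8% and *Mef2a* at 75.2%. *Hdac7* was at 92.9% and *Hdac5* at 96.1%. HT 4 was thus the lowest of the 10 libraries for 5 of 7 members, against 27.5% of all genes tested. *Hdac4*, *Hdac9*, *Mef2a*, *Mef2c* and *Mef2d* have longest coding transcripts of 5.40 to 8.10 kb. Those of *Hdac5* (4.85 kb) and *Hdac7* (4.23 kb) are shorter and lie in the 10% of genes with the highest GC content, at 58.8% and 58.9%.

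The trend of HT 4 on transcript length and GC content, fitted over all genes, covered part of these values. *Mef2c* lay 0.69 log2 units under its mean in HT 4, where the trend gave -0.33, and -0.36 remained. *Hdac4* lay at -0.55 with a trend of -0.24, and *Hdac9* at -0.53 with a trend of -0.30. *Mef2d* lay at -0.50 with a trend of only -0.097, so that -0.40 remained. For *Mef2a* the measured -0.36 and the trend of -0.27 were close. Once the trend was removed, HT 4 was the lowest library for 6 of 7 members, all except *Hdac5*. Among them was *Hdac7*, for which HT 1 had been the lowest library before this step. The share of all genes lowest in HT 4 after this step is not given here, so this count cannot be read as particular to the members. Several neuronal markers were also low in HT 4. The summed level of the glutamatergic markers was 18925 there and at least 22566 in every other library, with 5 of 6 under the mean of the other HT libraries, whereas *Slc17a6* was higher in HT 4 than in any other library, at 109% of that mean. Among the general neuronal and GABAergic markers, each against its own mean in the other HT libraries, *Syt1* stood at 74.0%, *Rbfox3* at 78.3% and *Dlx1* at 69.3%, while *Tubb3* and *Slc32a1* stood at 110.1% and 116.8%. The part of these markers in the values of the members was not tested.

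**Figure D3:**
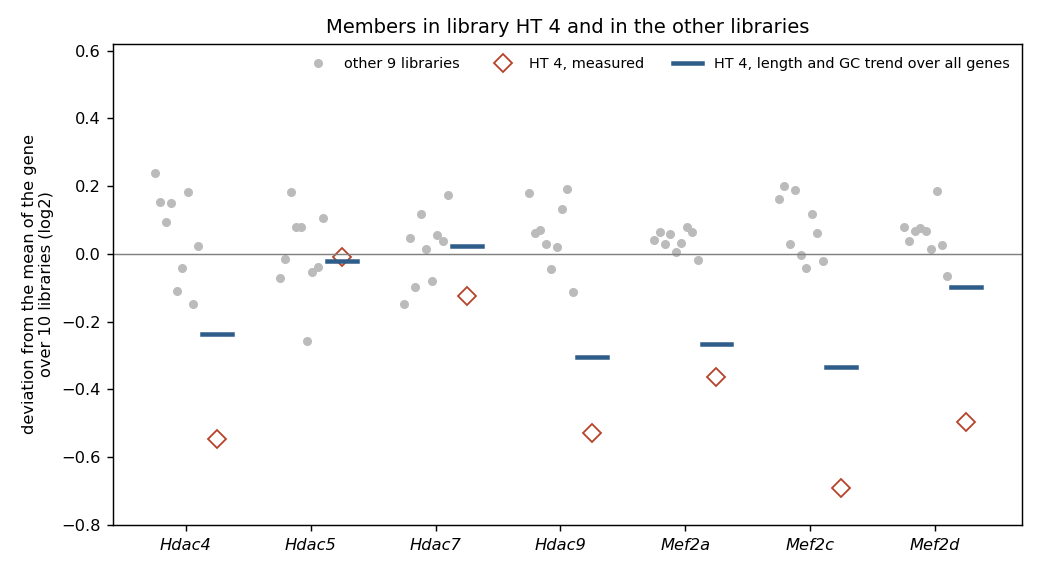
Deviation of each member from its mean over 10 libraries (log2, vertical axis) in HT 4 (open diamonds), the deviation that the length and GC trend over all genes gives for HT 4 (blue bars), and the other 9 libraries (grey points). HT 4 lies under its blue bar and under the grey points for *Hdac4*, *Hdac9*, *Mef2a*, *Mef2c* and *Mef2d*.

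The members differed in how closely the mice agreed. In WT the coefficient of variation was lowest for *Mef2a* (2.75%) and *Mef2c* (4.56%), followed by *Hdac7* (6.31%) and *Mef2d* (6.43%). It was higher for *Hdac9* (8.67%), *Hdac4* (9.29%) and *Hdac5* (9.68%). Over the 6181 genes with a mean of at least 1000 the median was 4.90%, above the values of *Mef2a* and *Mef2c* and under those of the other 5 members. In HT without HT 4, *Mef2a* (1.18%) and *Mef2d* (1.33%) varied least.

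Levels of different genes were compared per kilobase of the longest coding transcript. *Mef2c* was highest with 2935 ± 442 normalised counts per kb (SD, n = 10), followed by *Mef2a* with 802 ± 65.4 and *Mef2d* with 737 ± 83.5. Among the deacetylases *Hdac5* had 595 ± 49.1, *Hdac7* 379 ± 28.2, *Hdac4* 152 ± 22.2 and *Hdac9* 134 ± 17.3 per kb. *Mef2c* exceeded 97.3% of all genes tested on this scale, and *Hdac9* 44.1%. All 6 neighbours in this order differed within libraries, with adjusted p from 0.00293 to 0.00781 in exact permutation tests of the paired log2 ratios (n = 10). *Mef2c* was above *Mef2a* in 10 of 10 libraries by a ratio of 3.62, *Hdac7* above *Hdac4* in 10 of 10 by 2.51, and *Hdac4* above *Hdac9* in 9 of 10 by 1.13. The ranges over libraries overlapped between *Mef2a* and *Mef2d*, between *Mef2d* and *Hdac5*, and between *Hdac4* and *Hdac9*. The order was the same without HT 4, but depends on the length used: dividing by the union of all exons puts *Mef2d* and *Hdac5* ahead of *Mef2a*, and the median length of coding transcripts puts *Hdac4* ahead of *Hdac7*.

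**Figure D4:**
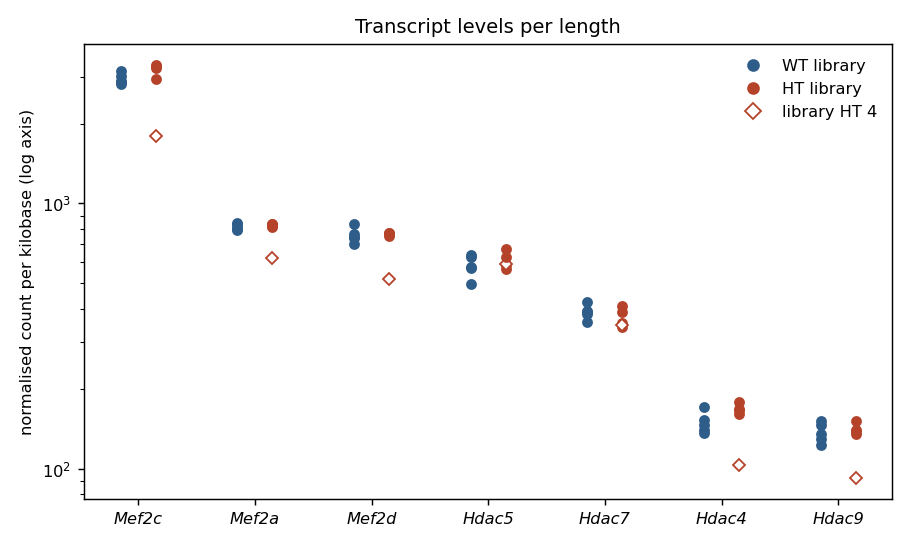
Normalised counts per kilobase of the longest coding transcript (vertical log axis) for each member, in order of the mean, 1 point per library. *Mef2c* lies above all other members in every library, and the points of *Mef2a* and *Mef2d* overlap, as do those of *Hdac4* and *Hdac9*.

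On the same scale *Mef2c* made up 65.6% ± 2.72 of the sum of the 3 MEF2 transcripts in HT and 65.1% ± 0.556 in WT (SD, n = 5). *Hdac5* made up 48.2% ± 2.99 of the class IIa sum in HT and 46.2% ± 2.18 in WT. With all libraries, the make-up of both families thus differed between HT and WT by less than the spread in HT, which includes HT 4. In HT 1, HT 2, HT 3 and HT 5 the *Mef2c* share was 67.0%, 67.7%, 65.1% and 67.3%, against 64.4% to 65.7% in WT. The *Mef2a* share there was 17.0%, 17.0%, 18.0% and 17.0%, against 17.5% to 18.7% in WT. For *Hdac5* it was 45.7%, 45.7%, 50.7% and 46.8%, against 43.7% to 49.1% in WT. A difference in these shares was not tested. HT 4 was outside the range of the other 9 libraries for 6 members: *Mef2c* made up 61.1% there and 64.4% to 67.7% elsewhere, and *Hdac5* 52.1% there and 43.7% to 50.7% elsewhere.

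Across libraries 5 of the members were strongly correlated. All 10 pairs among *Hdac4*, *Hdac9*, *Mef2a*, *Mef2c* and *Mef2d* had a Pearson r between 0.81 and 0.97 over the 10 libraries, with adjusted p under 0.05 for 10 of the 21 pairs compared (permutation test, 100000 resamples). By Spearman's rho, 0 of 21 pairs passed. For *Hdac4* and *Mef2c*, r was 0.917 (permutation p = 0.00161, adjusted 0.0113) and rho 0.75 (p = 0.0173, adjusted 0.0908). Without HT 4 and WT 4, the libraries farthest from the median of *Hdac4*, r was 0.832. For *Mef2a* and *Mef2d*, r went from 0.966 over 10 libraries to 0.364 without the 2 libraries farthest from the median of *Mef2a*.

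Without HT 4, 0 of 21 pairs passed by either measure (exact permutation test over 362880 pairings), the highest r being 0.77 for *Hdac9* and *Mef2a*. The pairs that passed with HT 4 thus did not pass without it, in a comparison over fewer libraries. Their r changed unevenly: *Mef2a* and *Mef2c* had r = 0.71 without HT 4, and *Hdac4* and *Hdac9* had r = 0.27. The part of HT 4 in these correlations was not tested. *Hdac4* and *Mef2c* had r = 0.72 over the 9 libraries, with an exact permutation p of 0.0359 and an adjusted p of 0.251. *Hdac5* and *Hdac7*, the members that were not low in HT 4, had r = 0.33 with it and 0.34 without it.

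The gene most like each member across libraries was found among all genes tested by Pearson's r, as a description over libraries that share these animals. Over the 10 libraries these were *Picalm* for *Hdac4* (r = 0.980), *Lrrc58* for *Hdac9* (0.991), *Dpysl3* for *Mef2a* (0.990), *Trim67* for *Mef2c* (0.993) and *Kif21b* for *Mef2d* (0.988). *Hdac7* was most like *Clip2* (0.958) and *Hdac5* most like *Gm46378* (0.936), a gene with a mean of only 22.8 normalised counts. Over the 9 libraries without HT 4, *Hdac5*, *Hdac7* and *Hdac9* had the same closest gene, with r of 0.937, 0.952 and 0.976. The closest gene was then *Hbs1l* for *Hdac4* (0.951), *Emc1* for *Mef2a* (0.971), *Rapgef2* for *Mef2c* (0.950) and *1700025G04Rik* for *Mef2d* (0.926). *Dpysl3*, the closest to *Mef2a* with HT 4, had r = 0.770 without it.

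Around the members, 59 other genes of the pathway in 7 lists were all tested, and limma called 0 of 59 at an adjusted p under 0.05 with or without HT 4. At an unadjusted p under 0.05, 4 of 59 (6.78%) were called with all libraries, beside 3.41% of genes. All 4 had a lower mean in HT, as did 1.93% of genes at that p, and 0 a higher one, as did 1.47%. Without HT 4 there were 7 of 59 (11.9%), beside 8.38%, of which 4 were higher in HT and 3 lower, beside 4.69% and 3.69% of genes. The median log2 fold change over the 59 genes was -0.0036 with all libraries and 0.024 without HT 4.

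Among the kinases and coactivators of MEF2, 0 of 7 passed the adjusted threshold, and 2 of 7 were lower at an unadjusted p under 0.05 in both readings. Of all genes, 1.93% were lower at that p with all libraries and 3.69% without HT 4. The median log2 fold change of this list was -0.084 with all libraries and -0.12 without HT 4. *Mapk7* codes for ERK5, which phosphorylates and activates MEF2 factors. It had 1618, 1729, 1783, 1699.7 and 1733 normalised counts in HT and 1825, 1896, 1921, 1799.9 and 1909 in WT. Every HT library thus lay under every WT library, HT 4 among them, a separation seen in 1 of the 59 genes and in 0.629% of all genes. Its log2 fold change was -0.13, with an unadjusted p of 0.0162 and an adjusted p of 1.00 in limma, and an exact permutation p of 0.00794, the smallest that 252 assignments can give.

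*Mapk14*, which codes for the p38 kinase that activates MEF2A and MEF2C, averaged 1411 ± 85.2 normalised counts over HT mice against 1582 ± 139 over WT mice. Its log2 fold change was -0.16 (unadjusted p 0.0313 in limma), and the groups overlapped. For *Mapk14* the unadjusted p was above 0.05 without HT 3 (0.0800), WT 1 (0.0875) or WT 4 (0.0880). *Kat2b*, an acetyltransferase and coactivator, had a log2 fold change of -0.18 with an unadjusted p of 0.0596.

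Among the 16 kinases of class IIa deacetylases, 0 were called higher and 1 lower at an unadjusted p under 0.05 with all libraries, and 2 higher and 1 lower without HT 4. Of all genes, 1.47% were higher and 1.93% lower at that p with all libraries, and 4.69% and 3.69% without HT 4. *Prkd3*, a protein kinase D, averaged 877 ± 63.0 normalised counts over HT mice against 998 ± 38.0 over WT mice. With all libraries the log2 fold change was -0.19 (unadjusted p 0.00732 in limma), and with HT 4 left out it was -0.17 (0.0108). *Camk1d* and *Camk2d*, of the CaMK family, were at 0.092 and 0.10 without HT 4 (unadjusted p 0.0498 and 0.0308). With all libraries they were at -0.038 and 0.073. *Mark3* was at 0.082 with all libraries (unadjusted p 0.198).

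Of the 8 corepressors 1 was called at an unadjusted p under 0.05 with all libraries, beside 3.41% of all genes, and 0 without HT 4, beside 8.38%. *Tbl1xr1*, an exchange factor of the NCoR complex, averaged 1951 ± 316 normalised counts over HT mice against 2371 ± 414 over WT mice, a log2 fold change of -0.28 (unadjusted p 0.0386 in limma). WT 1 was at 3102, where the other WT libraries had 2125 to 2295. Without WT 1 the log2 fold change of *Tbl1xr1* was -0.18 (unadjusted p 0.0977 in limma), and without HT 4 it was -0.24 (0.113). Its unadjusted p was also above 0.05 without HT 3 (0.0898), HT 5 (0.0791) or WT 4 (0.0548). *Bcor* was at -0.095 with all libraries. *Ncor1* and *Cabin1* turned from -0.038 and 0.011 with all libraries to 0.096 and 0.10 without HT 4.

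Among the 7 deacetylases of the other classes 0 were called in either reading, and their log2 fold changes lay between -0.088 (*Hdac10*) and 0.10 (*Hdac11*). *Hdac3*, the enzyme of the NCoR complex, had 3007 to 3091 normalised counts in the 4 HT libraries other than HT 4 and 3583 in HT 4. The WT libraries ran from 3100 to 3247 (*Hdac3*, mean 3168 ± 70.3, n = 5). Its groups thus separated without HT 4, as they did in 2 of the 59 genes and in 2.96% of all genes, with a log2 fold change of -0.057 and an unadjusted p of 0.127 in limma. *Hdac1* and *Hdac2* were at -0.048 and -0.023 with all libraries.

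The 14-3-3 proteins with the exporter *Xpo1* (0 of 7 called) and the phosphatases (0 of 6 called) had medians of 0.031 and 0.011 with all libraries. *Ywhab*, *Ywhag* and *Ywhah* were at 0.034, 0.043 and 0.069. *Ppp3ca*, *Ppp3cb* and *Ppp3r1*, parts of the phosphatase calcineurin, were at 0.011, -0.0036 and 0.038, and *Ppp2cb* and *Ppp2r1a* of PP2A at 0.012 and 0.014.

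Of the 8 neuronal MEF2 target genes 0 were called with all libraries. Without HT 4, 2 were higher at an unadjusted p under 0.05 and 0 lower, beside 4.69% and 3.69% of all genes. *Pcdh10*, a protocadherin, averaged 7449 ± 297 normalised counts over the 4 HT mice without HT 4 against 6703 ± 354 over WT mice (SD), a log2 fold change of 0.15 (unadjusted p 0.00317, adjusted p 0.447 in limma). With all libraries *Pcdh10* was at 0.075 (unadjusted p 0.352). *Homer1*, a scaffold of the excitatory synapse, was at 0.13 without HT 4 (unadjusted p 0.00934) and at 0.033 with all libraries.

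*Arc*, an activity-regulated gene of the postsynapse, was at 146, 187, 233, 186 and 219.5 in HT and at 168, 206, 185, 173 and 169 in WT. HT 1 and HT 3 were the lowest and the highest libraries, and the log2 fold change of *Arc* was 0.094 with a 95% interval from -0.18 to 0.37.

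**Figure D5:**
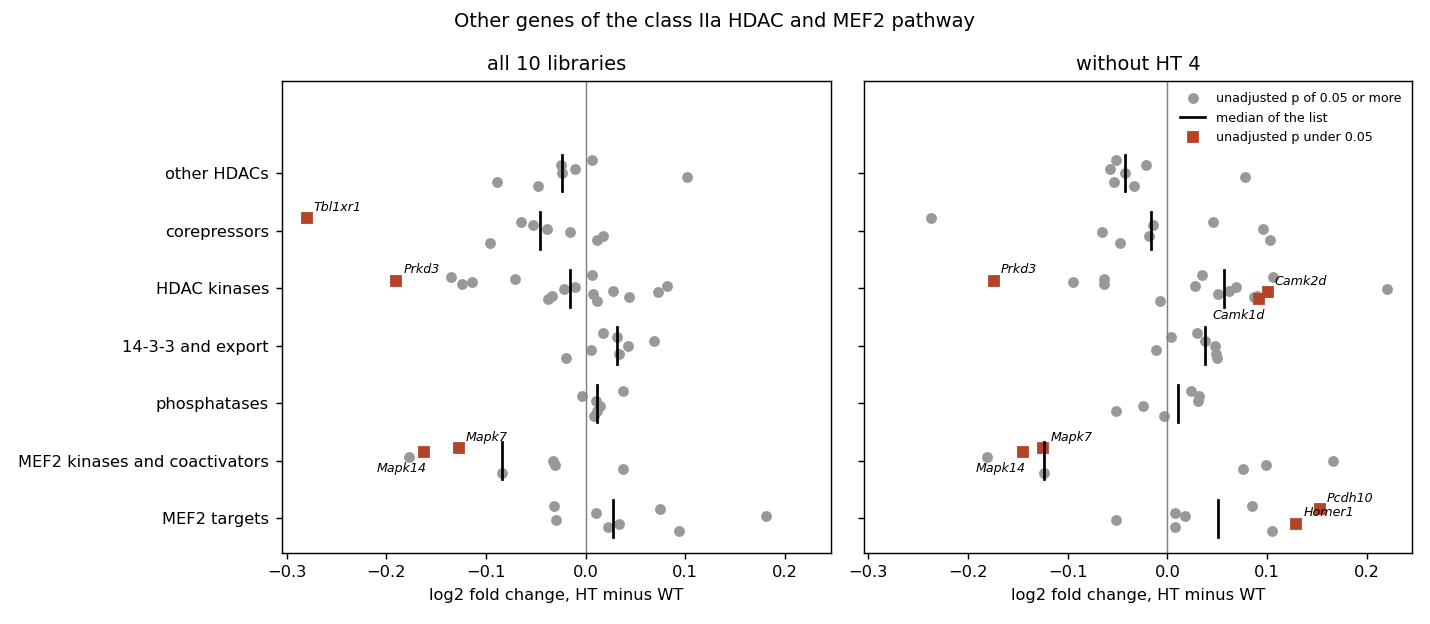
Log2 fold change of HT against WT (horizontal axes) of 59 pathway genes by list, with all 10 libraries (left) and without HT 4 (right). Squares with names are at an unadjusted p under 0.05 in limma, circles are not, and bars are medians of the lists. *Mapk7*, *Mapk14* and *Prkd3* lie to the left of 0 in both panels.

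Markers of other cells in the brain overlapped between the groups in their summed levels. Of 12 microglia markers 0 had a higher mean in HT, with or without HT 4. Of all genes, 46.4% and 49.6% had a log2 fold change above 0 in these readings. Markers of the same cell type were measured in the same mice and are not independent of each other, so these counts are descriptions. The median log2 fold change of the microglia markers was -0.21 over all libraries and -0.32 without HT 4. At an unadjusted p under 0.05 were 0 and 2 of the 12, where 3.41% and 8.38% of all genes were. The microglia sums ran from 2185 to 3315 normalised counts in HT and from 2357 to 3951 in WT. The 5 erythroid markers had higher means in HT. The log2 fold changes of these had a median of 0.48, and 0 of 5 were at an unadjusted p under 0.05. Their sums were 5937 to 13668 in HT and 4520 to 13813 in WT. Skeletal muscle markers were near the floor of the table, with sums of 163 to 487 over 7 genes, and 0 of the 6 tested were higher in HT. With all libraries 1 of the 6 was at an unadjusted p under 0.05, and without HT 4 also 1. Endothelial markers, of the cell type for which *Hdac7* is best known, summed to 7266 to 8462 in HT and 7669 to 8216 in WT, with HT 4 the highest. At an unadjusted p under 0.05 were 0 of 10 with all libraries and 3 of 10 without HT 4. Without HT 4 the median log2 fold change of the endothelial markers was -0.081, and 3 of 10 had a higher mean in HT. The sums of 6 GABAergic markers were 13840 to 15596 in HT and 13632 to 14452 in WT. The glutamatergic sums ran from 18925 to 25671 in HT and from 22566 to 24422 in WT, without HT 4 from 23458. With all libraries 0 of 6 GABAergic and 1 of 6 glutamatergic markers were at an unadjusted p under 0.05. Without HT 4 it was 1 of 6 in each list. No marker held in the table was at 0 in all libraries, but the smallest mean of any gene there was 3.44 normalised counts. *Myog*, a further skeletal muscle marker looked for, was absent from the table. The part of these cells in the values of the members was not tested.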

How the data were processed

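Poly-A RNA of the whole brain of 10 mice was sequenced with a stranded kit, 1 library per mouse per the study's methods. Groups and replicate numbers come from the labels. Per the study's methods and processing notes, the authors quantified reads with Salmon 1.1.0 on GRCm38 and divided them by DESeq2 1.30.1 size factors. The deposited table holds this signal, a normalised read count. The annotation release is not given in the sources used here. The value of 1 read, from the steps between low values, was 0.907 to 1.131, or 25.1 M to 31.3 M reads per library (M, 1000000). Only 11.0% to 15.9% of values were whole multiples of it (within 0.05), so no count test was run. Precision was taken from the spread between mice.

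Symbols, positions and lengths come from GENCODE M21 (18431 of 18444 genes matched), and promoters from RefSeq. Values were tested as log2(value + 1) with limma 3.58.1 in R 4.3.3 (limma-trend, robust, no covariate, two-sided), HT minus WT, over 17020 genes with a mean of at least 10. P-values were adjusted by Benjamini-Hochberg over all of these, with a threshold of 0.05. Fold changes on this scale understate those of low genes. On simulated data limma called 89.7% of 97 genes changed 2-fold, 69.0% of 100 changed 1.5-fold and 8 of 17079 unchanged genes (17276 genes, 5 against 5). The simulated spread of each gene was taken from the libraries other than HT 4, and no simulated library deviated as HT 4 does. These shares therefore do not hold for the fit with all 10 libraries. Exact permutation tests (SciPy 1.17.1) ran over all assignments of libraries to groups, or over all sign changes within libraries for levels. The length and GC trend was a spline fit over all genes in each library.

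The members and lists were chosen with earlier results of these data known. The genes named are the members, *Arid1b*, *Arc*, the 3 genes of each pathway list with the smallest unadjusted p with and without HT 4, and for each member the gene most like it. Of the genes so chosen, some are left unreported. Alternatives were another pseudocount, filter, normalisation, weights, transcript length, the trend, a replicate block and each library left out.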

Additional observations from a re-analysis of the deposited data

Results flagged for a closer look

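Within groups of 5 libraries, 1 library stood far from the other 4 by Dixon's ratio, the gap to the nearest library over the whole range, in 20 of 110 groups examined. Chance gives such a gap in about 1 in 20 groups of independent values. These groups are not independent: the far library was HT 4 in 16 of the 20, and some genes were named for their likeness to members that are low in HT 4, or for their p without HT 4, so the count has no fair chance level.

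HT 4 was the lowest HT library for 5 members, with ratios of 0.772 for *Hdac4*, 0.741 for *Hdac9*, 0.9005 for *Mef2a*, 0.754 for *Mef2c* and 0.9115 for *Mef2d*. It was also the lowest for *Arid1b* (0.735), *Camk1d* (0.920), *Homer1* (0.769) and *Pcdh10* (0.7325). Among the genes most like the members it was the lowest for *Picalm* (0.801), *Dpysl3* (0.867), *Trim67* (0.711), *Kif21b* (0.862) and *Rapgef2* (0.767). HT 4 was the highest HT library for *Hdac3* (0.854) and *Klf2* (0.802).

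Other libraries stood apart in 4 cases. HT 3 was the highest for *Hdac1* (0.798) and *Gm46378* (0.758) and the lowest for *Kat2b* (0.753). WT 1 was the highest WT library for *Tbl1xr1* (0.826).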

How the results depend on the processing

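No member passed the adjusted threshold under any of 21 alternatives, and *Hdac5* and *Hdac7* kept their direction in all of them. Leaving out 1 library at a time gave log2 fold changes from -0.018 (without HT 1) to 0.18 for *Hdac4*, -0.13 to 0.047 for *Hdac9*, -0.091 to 0.016 for *Mef2a*, -0.10 to 0.12 for *Mef2c* and -0.12 to 0.020 for *Mef2d*. The positive ends are those without HT 4. Without HT 4 and with the length and GC trend taken out, *Hdac9* was at 0.015, *Mef2a* at 0.00030, *Mef2c* at 0.095 and *Mef2d* at 0.028. Sample weights gave 0.010 for *Hdac9* and 0.089 for *Mef2c*, and the trend taken out of all 10 libraries gave 0.0053 for *Mef2c*. *Arid1b* passed the threshold with weights (-0.60), with the trend taken out (-0.66), without HT 4 (-0.57) and with both (-0.61), and lay between -0.73 and -0.57 with 1 library left out.

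Over all genes, 0 to 2 passed the threshold with 1 library left out, 2 with weights, 2 with the trend taken out and 2 with the trend taken out and HT 4 left out. At an unadjusted p under 0.05 there were 1280 genes with weights, 1349 without HT 4 and with the trend taken out, and 449 to 1426 with 1 library left out, the highest being without HT 4. Pathway genes at an unadjusted p under 0.05 numbered 2 (without HT 3 or without WT 4) to 7 (without HT 4), and 11 without HT 4 and with the trend taken out. The order of levels kept 4 of 7 ranks by the union of exons. The count of correlated pairs was 0 without HT 4. The cause of these changes was not tested.

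The deviations of same-numbered HT and WT libraries from their group means had correlations of 0.082 to 0.093 for 4 numbers and -0.104 for number 4. None exceeded 0.1, the cutoff applied here, so the numbers were not taken as pairs. As a hint from the data in the other direction, 6 of 10 libraries correlated best with their own number. Number 4 includes HT 4. Whether same-numbered libraries belong together was not tested. With a replicate block 0 members and 0 genes passed, 558 genes were at an unadjusted p under 0.05, and *Arid1b* was at -0.68. With the block and the trend taken out 1 gene passed, *Arid1b* (-0.66), and *Mef2c* was at 0.0053.

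How far depth, the number of mice and HT 4 each limit these comparisons was not compared.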
